A study of Mus musculus with 17 samples.

Results

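The nuclear genes of oxidative phosphorylation were followed in mouse spinal cord with targeted EAE (experimental autoimmune encephalomyelitis, an immune attack on myelin that is used as a model of multiple sclerosis). Members were taken by gene symbol: the subunits of respiratory complexes I to IV and of ATP synthase (complex V), with the assembly factors of complex I that carry the Ndufaf name. The rule found 91 genes among 18194 genes with a probe set of their own on the array. Each gene was represented by the probe set with the highest mean log2 signal over the 17 arrays. The symbol rule and the choice of probe set used no expression difference, but the set was chosen with earlier results of these data known. The 91 genes comprised 74 subunits, 8 tissue isoforms of complex IV, 8 complex I assembly factors and Cox7a2l, a factor that joins complexes III and IV into supercomplexes.

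The 3 groups of female mice were labelled C57BL/6 (C57BL/6J in the methods) and 8 weeks old and measured with 1 array per mouse and whole cord tissue 4.5 mm wide around the cytokine injection site. The 6 mice of the anti-RGMa group had targeted EAE and received a humanized antibody against repulsive guidance molecule-a. The 5 mice of the isotype control group had targeted EAE and received an antibody of the same type without that target. EAE in both groups was induced by immunization with a myelin peptide, a laminectomy with injection of TNF-α and IFN-γ into the thoracic cord, and pertussis toxin. By the methods the cytokines were injected 3 weeks after immunization. Whether the 8 weeks of the label refer to the age at collection was not stated. Antibody was injected intravenously at 10 mg/kg from day 9 after the cytokine injection and the cords were collected on day 14. The 6 naïve mice were labelled as not treated, so immunization, surgery, cytokines, toxin and antibody all separate them from the EAE groups and cannot be told apart. Whether same-numbered mice of different groups belong together was not stated.

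As background, complex I takes electrons from NADH and complex II takes them from succinate. Both pass them to ubiquinone, from which complex III hands them to cytochrome c and complex IV to oxygen. The protons pumped on the way drive ATP synthase. Neurons with long axons depend heavily on this route for ATP, and mitochondrial damage in axons is a known feature of inflammatory demyelination. Complex II is encoded wholly in the nucleus, while the other complexes also hold subunits encoded in mitochondrial DNA. Of these, 0 of 13 were measured by a named probe set here.

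Array signals had been scaled to a trimmed mean of 500 in every array, and the median signal per array ran from 136 to 157.3 in the anti-RGMa group, from 136.8 to 164.8 in the isotype control group and from 131.5 to 145.1 in naïve mice. The difference in log2 signal between the 3′ and 5′ probe sets of Actb, a measure of RNA integrity, had medians of 0.716, 0.610 and 0.519 in the same order of groups, and that of Gapdh had -0.330, -0.323 and -0.654. Naïve replicate 6 stood apart from the other naïve arrays in both (0.868 for Actb and -0.309 for Gapdh). The part of these differences in the results was not tested. Macrophage and monocyte markers, the neuron markers and the skeletal muscle markers differed between arrays and are given beside the results they moved with. In naïve cord the neuronal genes Rbfox3 and Stmn2 had mean log2 signals of 12.45 and 13.45.

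Subunits of every complex were lower in the isotype control group than in naïve mice. At an adjusted p under 0.05 (limma, Benjamini-Hochberg over all 18194 genes), 63 of the 91 genes fell, 3 rose and 25 did not pass, against a background of 27.2% of all genes lower and 24.6% higher. The median log2 fold change was -0.44 over the 91 genes and -0.04 over all genes. In 57 genes every isotype control array lay below every naïve array, where 20.4% of all genes did so, and in 2 genes every one lay above (18.3%). Past a fold change of 1.5 with an unadjusted p under 0.05, 25 were lower (15.5%) and 2 higher (18%). The counts rest on 1 probe set per gene. Of the 25 genes that did not pass, 7 (Atp5h, Cox6b1, Ndufb11, Ndufb6, Ndufb7, Ndufs8 and Sdhc) had a dimmer probe set that passed as lower in a fit over all probe sets, and 0 had one that passed as higher. Among the genes called lower, 4 had a dimmer probe set that passed as higher in that fit. They were Ndufa7 (0.35), Ndufb8 (1.22), Ndufs4 (0.91) and Sdhd (0.50). The members are bright genes, with 71 among the brightest 10% of genes. Those 1811 genes had 50% lower and a median of -0.21. Since these are whole-tissue samples, fewer cells of a type and less RNA per cell cannot be told apart.

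**Figure D1:**
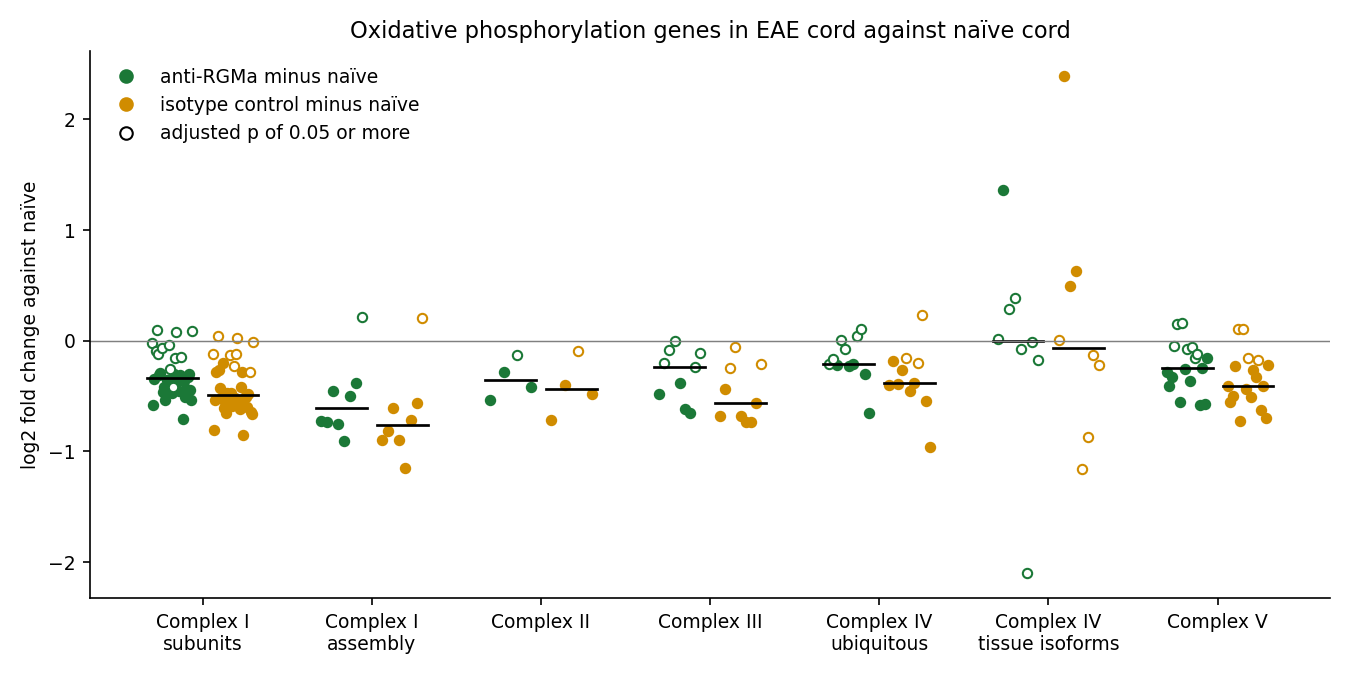
Log2 fold change against naïve (vertical axis) of each of the 91 genes, by complex, for anti-RGMa (green, left) and isotype control (orange, right), with filled points for an adjusted p under 0.05, open points otherwise and a black bar for the median of each column. Cox7a2l is drawn with the ubiquitous subunits of complex IV. Most points lie below 0 in all columns but the tissue isoforms, where Cox6a2 stands highest at 1.36 for anti-RGMa and 2.40 for isotype control.

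Promoters of 3 members that fell or stood out and of 1 that rose are shown for the motif of NRF1 (nuclear respiratory factor 1), which is known to bind many promoters of this gene group. Promoter sequences were taken from RefSeq on GRCm38.p6, as the 250 bases before the transcription start, and 74 of the 91 genes had one. The letters GCGCANGCG were searched on both strands, where the reverse reads CGCNTGCGC. Overlapping matches were counted once. Where a gene had several starts, a match before any of them counted, and the start with the most NRF1 matches is printed. The background is all genes with a promoter sequence, measured here or not. A match was found in 13 of these 74 promoters (17.6%) and in 5.86% of the promoters of 27025 genes, and with a further C at the 3′ end in 12 (16.2%) and 4.23%. The 13 genes with a match had a median log2 fold change of -0.42 in isotype control against naïve, and the others -0.48. The letters CCGGAAG, a motif of ETS factors (reverse CTTCCGG), were in 14 of the 74 promoters (18.9%) and in 7.83% of all, with medians of -0.21 in genes with a match and -0.50 in the others. The sequences below read 5′ to 3′ with the NRF1 matches alone in capitals. Sdha (chr13:74350241-74350490, minus strand) had 3 matches and was the complex II gene with the smallest p. Atp5c1 (chr2:10080433-10080682, minus strand) had 1 match and was that of complex V. Cox6a1 (chr5:115348959-115349208, minus strand) had 2 matches and the smallest p of all members between the antibodies. Cox7a1 (chr7:30183921-30184170, plus strand) had 0 matches and was 1 of the 3 genes that rose. A match is only a run of letters, and its absence from this window says nothing about the factor.
Sdha: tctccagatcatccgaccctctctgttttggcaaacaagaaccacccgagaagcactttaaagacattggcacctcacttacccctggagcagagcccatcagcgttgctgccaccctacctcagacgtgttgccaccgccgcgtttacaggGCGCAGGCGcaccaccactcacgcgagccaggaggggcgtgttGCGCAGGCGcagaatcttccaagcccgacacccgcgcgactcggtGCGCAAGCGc
Atp5c1: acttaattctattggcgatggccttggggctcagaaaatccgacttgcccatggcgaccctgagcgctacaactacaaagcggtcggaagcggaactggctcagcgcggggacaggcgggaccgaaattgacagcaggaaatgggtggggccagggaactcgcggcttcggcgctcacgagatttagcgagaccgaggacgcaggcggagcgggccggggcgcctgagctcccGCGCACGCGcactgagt
Cox6a1: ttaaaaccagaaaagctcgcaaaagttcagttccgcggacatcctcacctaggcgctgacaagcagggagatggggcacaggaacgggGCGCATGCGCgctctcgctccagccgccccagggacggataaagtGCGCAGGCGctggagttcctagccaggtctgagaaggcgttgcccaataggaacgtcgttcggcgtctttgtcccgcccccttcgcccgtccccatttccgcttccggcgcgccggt
Cox7a1: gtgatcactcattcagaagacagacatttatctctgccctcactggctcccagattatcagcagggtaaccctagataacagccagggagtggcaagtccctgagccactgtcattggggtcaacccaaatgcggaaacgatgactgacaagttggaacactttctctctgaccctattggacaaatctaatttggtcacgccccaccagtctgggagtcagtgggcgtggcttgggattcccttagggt

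Complex I, the entry point for NADH, fell in most of its subunits. Of 34 subunits, 26 were lower in isotype control than in naïve cord and 0 higher, with a median log2 fold change of -0.49. Among the core subunits, which carry the flavin and iron-sulfur clusters or the path of electrons to ubiquinone, 5 of 6 fell (median -0.57). Ndufs1, the large iron-sulfur subunit at the tip of the complex, had the largest fall among them at -0.86 (SE 0.13, adjusted p = 6.81e-05). Its log2 signals were 11.12, 11.44, 11.65, 11.43 and 11.15 in isotype control replicates 1 to 5, and 12.08, 12.22 and 12.34 in naïve mice (lowest, median and highest of 6). The core subunit that missed the threshold was Ndufs8, an iron-sulfur protein, at -0.28 (SE 0.11). Of its 6 probe sets, however, 4 others passed as lower, between -0.91 and -0.42. Of the 28 accessory subunits, which surround the core, 21 fell (median -0.48).

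The complex I subunits with the smallest p were the accessory proteins Ndufb3 and Ndufa10, both of the membrane arm. Ndufb3 had log2 signals of 11.85, 12.02, 11.88, 11.79 and 11.78 in the isotype control replicates and 12.36, 12.42 and 12.61 in naïve mice. The 2 groups did not overlap and differed by -0.59 (SE 0.08, adjusted p = 3.32e-05 from limma) on the log2 scale. Ndufa10 had 11.93, 12.19, 12.37, 12.29 and 12.04 in isotype control and 12.92, 12.96 and 13.03 in naïve cord. Its groups did not overlap either, at -0.81 (SE 0.12, adjusted p = 4.61e-05), and replicates 1 and 5 were the lowest isotype control arrays. In the anti-RGMa group Ndufa10 had 11.86, 12.48 and 12.63, also below all naïve arrays. Among the small accessory subunits, Ndufa2, Ndufb7, Ndufv3, Ndufa1, Ndufb6 and Ndufb11 had log2 fold changes between -0.13 and 0.04 in their brightest probe sets, and 0 of these passed. A further probe set passed as lower in Ndufb6 (-0.73, adjusted p = 0.000115), Ndufb11 (-0.48, adjusted p = 0.000283) and Ndufb7 (-0.26, adjusted p = 0.0335), so for these 3 genes the call depended on the probe set.

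The assembly factors of complex I, which build the enzyme and are not part of it, fell by more on the log2 scale than the subunits, though the difference between the sets was not tested. Of 8 factors 7 fell (median -0.76). Ndufaf5, an enzyme that modifies the core subunit Ndufs7 in human cells, had log2 signals of 8.79, 9.45, 9.63, 9.04 and 8.97 in isotype control, against 10.14, 10.31 and 10.49 in naïve cord. Every isotype control array was lower, at -1.15 (SE 0.18, adjusted p = 8.53e-05), and the anti-RGMa group was lower too, at 8.62, 9.55 and 9.66. Ndufaf8 was the exception, with 10.81, 10.95, 10.70, 10.64 and 10.99 in isotype control and 10.47, 10.58 and 10.96 in naïve mice, which overlap (0.20, SE 0.10, adjusted p = 0.0935).

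Complex II, which is also an enzyme of the citrate cycle, had 3 of 4 subunits lower (median -0.44). Sdha, the flavoprotein that oxidizes succinate, had log2 signals of 12.20, 12.51, 12.58, 12.40 and 12.38 in isotype control replicates 1 to 5 and 12.95, 13.18 and 13.22 in naïve mice. Each isotype control array lay below each naïve one (-0.72, SE 0.09, adjusted p = 1.26e-05). Sdhb, the iron-sulfur subunit, had 12.43, 12.44, 12.45, 12.40 and 12.38 in isotype control, against 12.75, 12.79 and 12.93 in naïve mice. The isotype control values of Sdhb were tightly grouped and all lower (-0.40, SE 0.06, adjusted p = 7.28e-05). Of the membrane anchors, which hold the ubiquinone site, Sdhd fell by 0.48 on the log2 scale with overlapping ranges. A dimmer probe set of Sdhd passed as higher (0.50, adjusted p = 0.0394 from limma), so its direction depended on the probe set. Sdhc had -0.09 (SE 0.07) and did not pass, though its dimmer probe set passed as lower (-0.22, adjusted p = 0.0428).

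Complex III had 6 of 9 subunits lower, and its large subunits fell while several small ones did not pass. Both core proteins, Uqcrc1 and Uqcrc2, and both redox subunits in the nuclear genome, Cyc1 and Uqcrfs1, fell, with medians of -0.71 in each pair. Of the 5 small subunits 2 fell (median -0.25), though all 5 were below 0 and 4 had an unadjusted p under 0.05 (limma). The difference between large and small subunits was not tested. Uqcrc2, a scaffold protein on the matrix side, had 11.89, 12.13, 12.29, 12.17 and 12.06 in isotype control and 12.70, 12.87 and 12.93 in naïve mice. These groups did not overlap, and at -0.74 (SE 0.09, adjusted p = 8.47e-06) Uqcrc2 had the smallest p of the 91 genes. Uqcrfs1, the Rieske iron-sulfur protein, had 11.54, 11.93, 12.03, 11.90 and 11.68 in isotype control and 12.48, 12.55 and 12.60 in naïve cord. Replicate 1 was the lowest isotype control array and replicate 3 the highest for both genes (Uqcrfs1 -0.73, SE 0.11, adjusted p = 4.54e-05). Uqcrb, a small subunit near the ubiquinone site, had -0.05 (SE 0.06).

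Complex IV, cytochrome c oxidase, had 8 of its 10 ubiquitous subunits lower (median -0.39). Ndufa4, named for complex I but since placed in complex IV, had the largest fall, with log2 signals of 12.54, 13.11, 13.21, 12.91 and 12.71 in isotype control and 13.75, 13.89 and 13.97 in naïve mice. No array overlapped (-0.96, SE 0.16, adjusted p = 9.1e-05). Cox8a, the smallest subunit, had 12.62, 12.67, 12.79, 12.52 and 12.79 in isotype control and 13.17, 13.21 and 13.31 in naïve mice (-0.54, SE 0.08, adjusted p = 4.24e-05), again without overlap. The dimmest probe set of Cox8a ran the other way, and averaging its probe sets left a difference of -0.20 (adjusted p = 0.118). Cox4i1, Cox7a2 and Cox6a1 fell by 0.40, 0.38 and 0.26 on the log2 scale. Cox6b1, at -0.16 (adjusted p = 0.0527), and Cox7c, a dim probe set at 0.23 (SE 0.17), did not pass. A second probe set of Cox6b1 did (-0.36, adjusted p = 0.000684), and Cox6b1 also passed with averaged probe sets (-0.26, adjusted p = 0.00487) and with quantile normalization (-0.24, adjusted p = 0.00326).

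In complex V, 13 of 17 subunits fell (median -0.40). Of the F1 part, which makes ATP, 4 of 5 were lower, of the peripheral stalk 3 of 4, of the c-ring genes 2 of 3 and of the other membrane subunits 4 of 5. Atp5c1, the rotating gamma subunit, had 13.10, 13.13, 13.24, 13.09 and 13.06 in isotype control and 13.53, 13.62 and 13.71 in naïve mice. The groups did not overlap (-0.49, SE 0.07, adjusted p = 3.76e-05). Atp5o, a stalk subunit, had 12.15, 12.48, 12.74, 12.56 and 12.43 in isotype control, against 13.06, 13.18 and 13.24 in naïve mice. All isotype control arrays were lower (-0.70, SE 0.11, adjusted p = 7.31e-05), but a dimmer probe set of Atp5o had 0.35, and averaging both left -0.17 (adjusted p = 0.2). The 3 c-ring genes encode the same mature protein and differed among themselves: Atp5g1 had -0.73, Atp5g3 -0.44 and Atp5g2 0.11, the last of which did not pass. Atp5e, the epsilon subunit, also had 0.11.

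**Figure D2:**
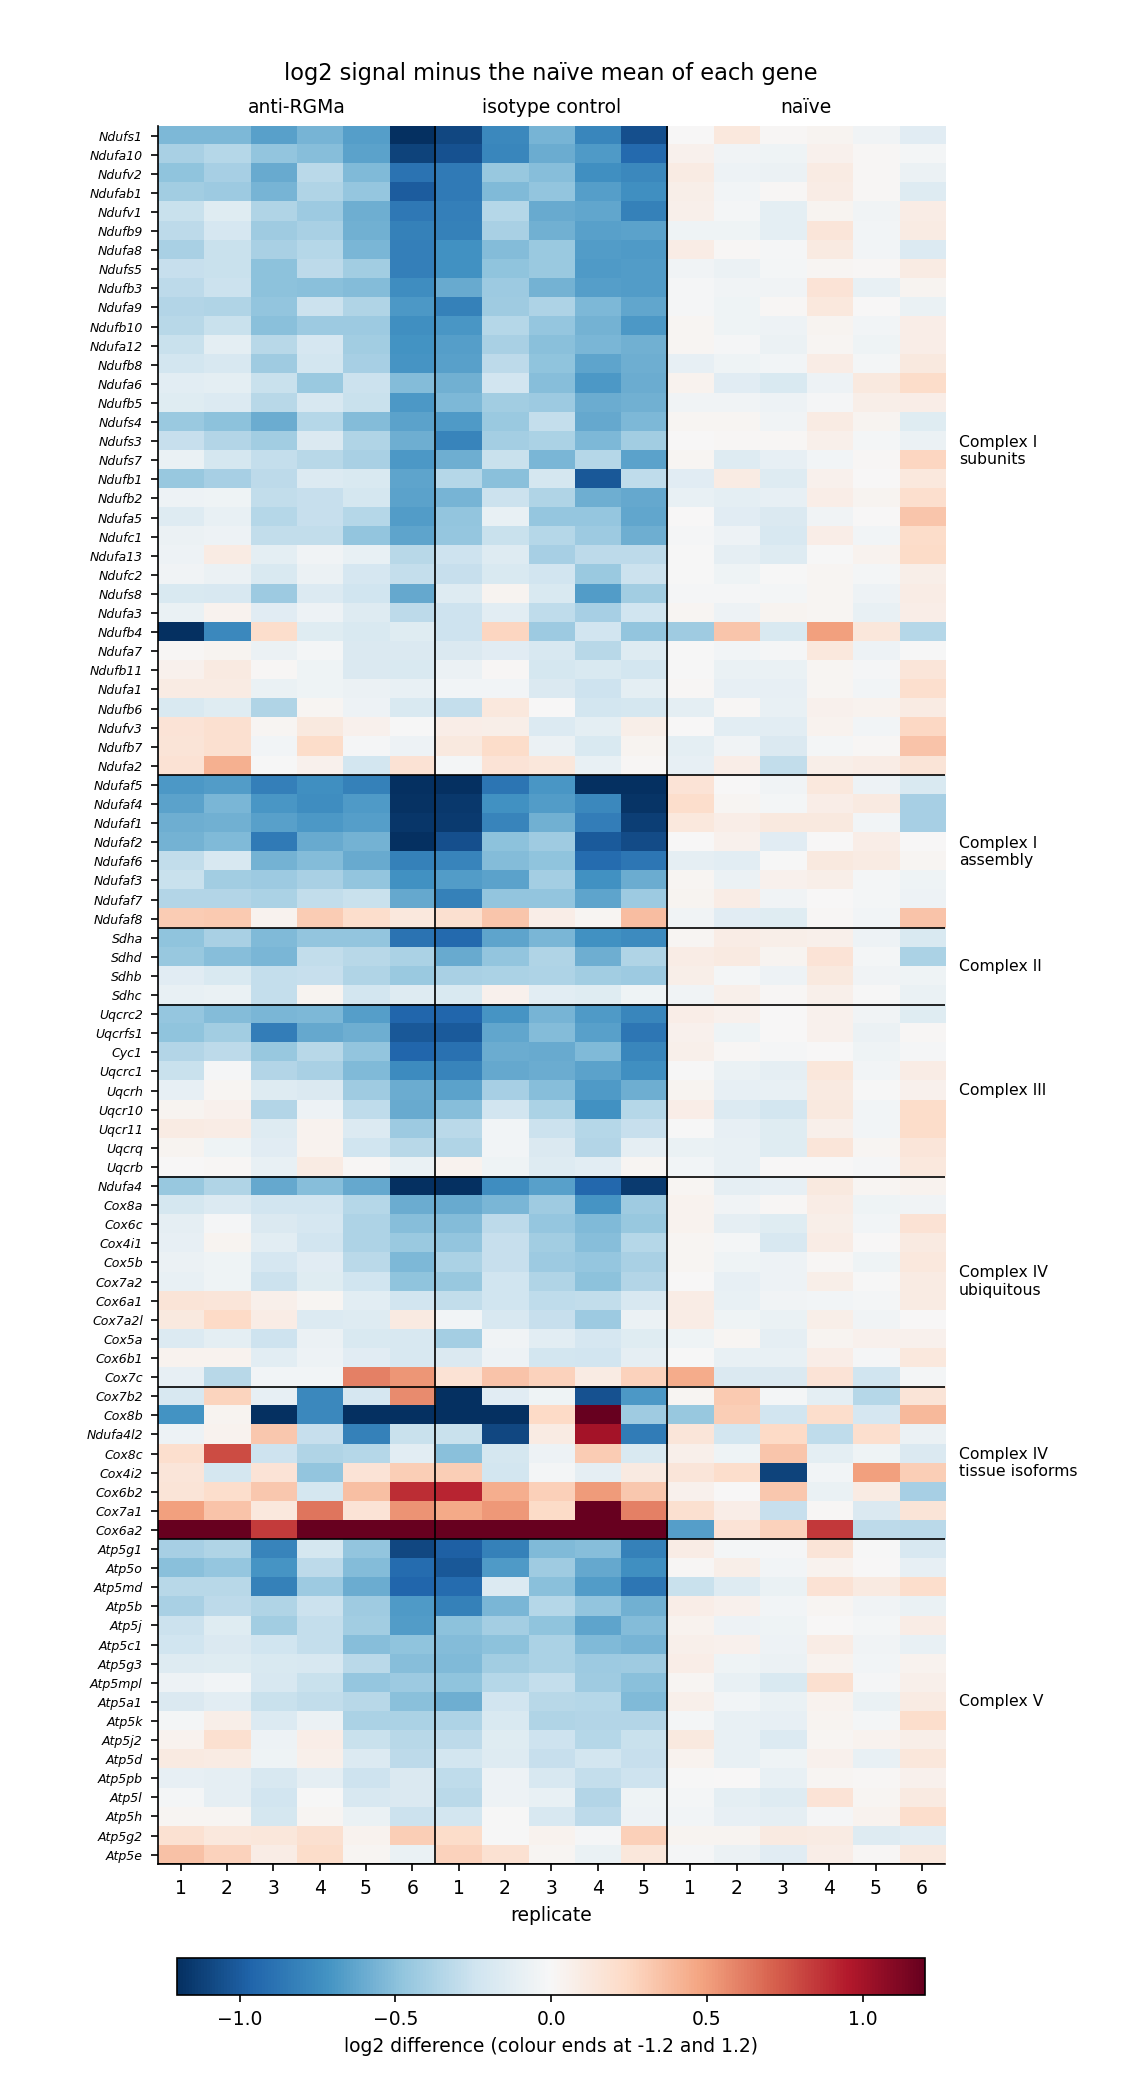
Log2 signal of each of the 91 genes (rows, ordered within each complex by the log2 fold change of isotype control against naïve) in each of the 17 arrays (columns), as the difference from the naïve mean of that gene, with blue for lower and red for higher. Blue fills the columns of both EAE groups, deepest in anti-RGMa replicate 6 and isotype control replicate 1, and the tissue isoforms Cox6a2 and Cox7a1 are red.

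The 3 genes that rose against naïve were all tissue isoforms of complex IV. Isoforms replace a ubiquitous subunit in particular tissues, and of the 8 measured, 3 were higher, 0 lower and 5 did not pass. Cox6a2, the isoform of heart and skeletal muscle, had log2 signals of 7.26, 7.83 and 8.10 in the anti-RGMa group, 7.70, 8.03, 8.58, 11.44 and 8.33 in isotype control replicates 1 to 5, and 5.76, 6.35 and 7.27 in naïve mice. Isotype control replicate 4 stood far above the others, yet all 5 isotype control arrays exceeded all naïve ones. The log2 fold change of isotype control against naïve was 2.40 (SE 0.51, adjusted p = 0.000944), and without replicate 4 it was 1.74 (adjusted p = 9.52e-05). In the anti-RGMa group it was 1.36 (SE 0.49, adjusted p = 0.0343). Cox7a1, another isoform of muscle, had 8.34, 8.63 and 8.85 in the anti-RGMa group, 8.66, 8.73, 8.44, 9.55 and 8.81 in isotype control and 7.93, 8.26 and 8.40 in naïve mice. Its isotype control arrays also lay above all naïve arrays, replicate 4 the highest (0.63, SE 0.17, adjusted p = 0.00471; without replicate 4, 0.45, adjusted p = 0.0072).

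Skeletal muscle markers moved with these isoforms in part. The mean log2 signal of 16 skeletal muscle genes was 5.69, 6.50 and 7.31 in the anti-RGMa group, 5.59, 5.34, 8.43, 12.47 and 9.06 in isotype control replicates 1 to 5 and 4.80, 5.80 and 8.12 in naïve mice. Isotype control replicates 3, 4 and 5 stood above the rest, while replicates 1 and 2 lay within the naïve range. Without replicates 3, 4 and 5, Cox6a2 had 1.44 (adjusted p = 0.00391) and Cox7a1 0.49 (adjusted p = 0.0244) in isotype control against naïve. With the muscle mean as a covariate they had 1.47 (adjusted p = 0.00212) and 0.45 (adjusted p = 0.0424). Cox8b, also a muscle isoform, had 2.09, 4.39 and 6.39 in the anti-RGMa group, 2.17, 2.20, 6.59, 10.51 and 5.93 in isotype control and 5.89, 6.36 and 6.74 in naïve mice. Its probe set was dim outside replicate 4 and its groups overlapped (isotype control against naïve -0.87, SE 1.25, adjusted p = 0.599). The sign of this value changed with an offset of 32 added to the signal. With the muscle mean as a covariate it was -3.01 (adjusted p = 0.0136), and without isotype control replicates 3, 4 and 5 it was -4.17 (adjusted p = 0.00392).

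**Figure D3:**
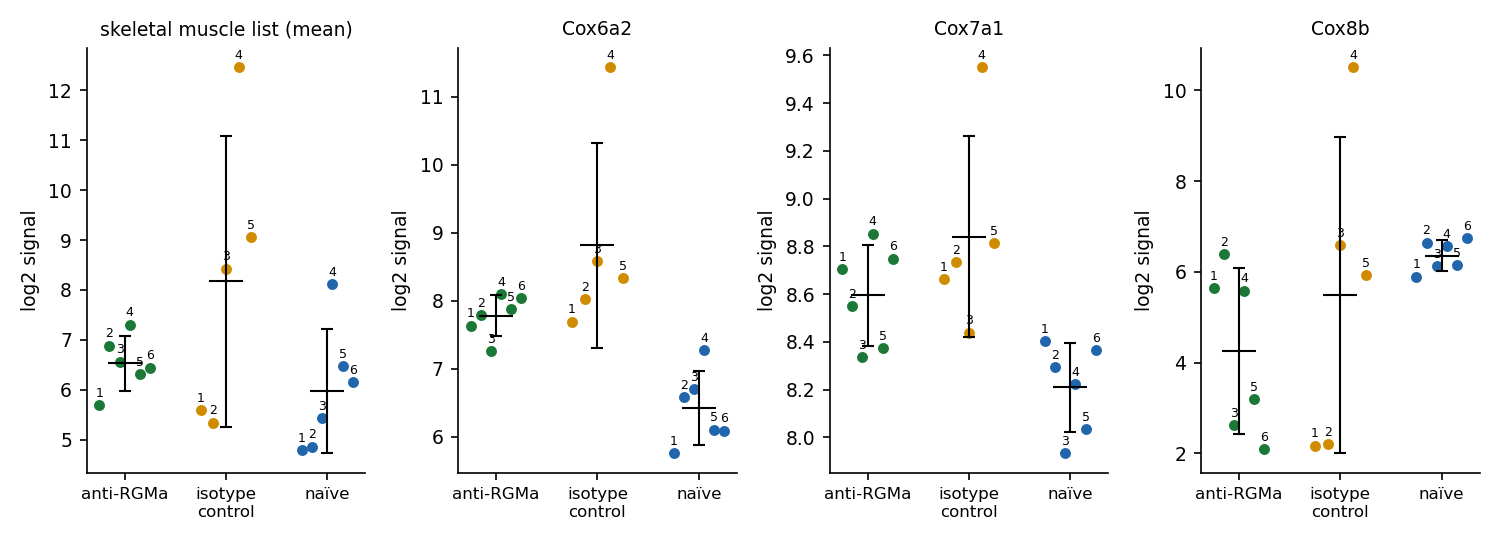
Log2 signal per array (vertical axis) of the mean of 16 skeletal muscle genes and of Cox6a2, Cox7a1 and Cox8b, by group, with replicate numbers above the points and black bars for the mean and SD. Isotype control replicate 4 is highest in all 4 panels, and in Cox6a2 the other isotype control arrays, from 7.70 to 8.58, are also above the naïve arrays.

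Cox6b2, the testis isoform, had 7.20, 7.68 and 8.29 in the anti-RGMa group, 8.33, 7.85, 7.70, 7.92 and 7.73 in isotype control and 7.01, 7.44 and 7.73 in naïve mice. Its ranges met at the edge, and the difference of isotype control against naïve was 0.50 (SE 0.17, adjusted p = 0.0234). It lost the call with quantile normalization (0.36, adjusted p = 0.097), without isotype control replicate 1 (0.39, adjusted p = 0.0742) or without naïve replicate 6 (0.42, adjusted p = 0.0545). Cox7b2, also of testis, had 1.51 in isotype control replicate 1 and between 4.31 and 5.30 in the other replicates, against 5.01, 5.35 and 5.66 in naïve mice (-1.15, SE 0.51, adjusted p = 0.0721). Cox4i2, the isoform of lung that responds to low oxygen, had 0.01 (SE 0.23), Cox8c, of testis, -0.13 (SE 0.19), and Ndufa4l2, a target of the hypoxia factor HIF1, -0.22 (SE 0.30). All but Cox8c of these were dim, so that small differences could not be measured well.

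The anti-RGMa group was also lower than naïve. At an adjusted p under 0.05, 51 of the 91 genes were lower (background 21.6%), 1 was higher (20.3%) and 39 did not pass, with a median log2 fold change of -0.28 against -0.03 over all genes. Past a fold change of 1.5, 8 were lower (9.12%) and 1 higher (14%), and in 41 genes all anti-RGMa arrays lay below all naïve arrays (13.8%), in 0 above (13.9%). The brightest 10% of genes had 697 of 1811 lower and a median of -0.11. By complex, 22 of 34 subunits of complex I fell, 3 of 4 of complex II, 4 of 9 of complex III, 5 of 10 of complex IV and 10 of 17 of complex V. All 6 core subunits of complex I fell (median -0.40), as did 7 of 8 assembly factors (median -0.61). Uqcrc2 had log2 signals of 11.89, 12.30 and 12.38 in the anti-RGMa group, against 12.70, 12.87 and 12.93 in naïve mice. All 6 anti-RGMa arrays were lower (-0.61, SE 0.09, adjusted p = 5.11e-05). Sdha had 12.25, 12.66 and 12.75 in the anti-RGMa group, likewise below all naïve arrays (-0.54, SE 0.09, adjusted p = 0.000202). In their brightest probe sets Cox6a1, Cox7a2l and Uqcrb were close to naïve, at 0.00, 0.04 and -0.01. Dimmer probe sets were lower in Cox6a1 (-0.22, adjusted p = 0.0212 from limma) and Uqcrb (-0.22, adjusted p = 0.05 from limma). Those of Cox7a2l had 0.17 and 0.11. This comparison and that of isotype control share the naïve arrays, so they are not independent of each other.

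Between the antibodies, no single gene passed the strict thresholds. At the study's threshold (a fold change over 1.5 with an unadjusted p under 0.05), anti-RGMa exceeded isotype control in 0 of the 91 genes (background 1.22%) and was lower in 0 (2.72%). At an adjusted p under 0.05 from limma 0 were higher (0.0055% of all genes) and 0 lower. At an unadjusted p under 0.05 alone, 19 were higher (9.01%) and 0 lower (6.77%). The differences were small: 82 of 91 log2 fold changes were above 0, with a median of 0.14, or 0.01 over all genes. The brightest 10% of genes had 427 of 1811 higher, 79 lower and a median of 0.10. The 2 groups separated in 0 members, upward (0.242% of all genes) or downward (0.566%).

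The 6 genes with the smallest p between the antibodies were subunits of complexes III, IV and V and the supercomplex factor Cox7a2l. Cox6a1, a ubiquitous subunit of complex IV, had log2 signals of 14.15, 14.43 and 14.54 in the anti-RGMa group, against 14.09, 14.15, 14.08, 14.09 and 14.19 in isotype control. Only anti-RGMa replicate 6 lay within the isotype control range (0.27, SE 0.07, adjusted p = 0.209 from limma). Uqcrh, the hinge protein of complex III, had 13.00, 13.43 and 13.62 in the anti-RGMa group, against 12.96, 13.20, 13.09, 12.92 and 13.02 in isotype control. Anti-RGMa replicates 5 and 6 lay within the isotype control range (0.32, SE 0.10, adjusted p = 0.223 from limma). Cox8a had 12.62, 12.99 and 13.05 in the anti-RGMa group, with replicate 6 alone inside the isotype control range (0.25, SE 0.08, adjusted p = 0.223 from limma). A second bright probe set of Cox8a had 0.24 and its dimmest -0.395. Averaging its probe sets left 0.03 (unadjusted p = 0.77 from limma).

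Uqcrc1, the other core protein of complex III, had 12.45, 12.83 and 13.19 in the anti-RGMa group, against 12.41, 12.59, 12.61, 12.56 and 12.47 in isotype control (0.29, SE 0.10, adjusted p = 0.24 from limma). Cox7a2l had 12.07, 12.33 and 12.48 in the anti-RGMa group, against 12.20, 12.04, 11.96, 11.80 and 12.16 in isotype control (0.24, SE 0.09, adjusted p = 0.247 from limma). Atp5g3, of the c-ring, had 13.61, 13.94 and 13.98 in the anti-RGMa group, against 13.60, 13.71, 13.74, 13.69 and 13.69 in isotype control (0.19, SE 0.07, adjusted p = 0.251 from limma). In Uqcrc1 and Atp5g3 the overlap again came from anti-RGMa replicate 6, and in Cox7a2l from replicates 4 and 5. By complex, 6 of 34 subunits of complex I had an unadjusted p under 0.05, 0 of 4 of complex II, 2 of 9 of complex III, 5 of 10 of complex IV and 4 of 17 of complex V, all higher. Beside these counts, 9.01% of all genes were higher at this threshold, and 427 of 1811 in the brightest 10% of genes. In the tissue isoforms the values were wide, with Cox6a2 at -1.03 (SE 0.51, adjusted p = 0.339 from limma) and Cox7b2 at 1.08 (SE 0.51, adjusted p = 0.32 from limma).

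**Figure D4:**
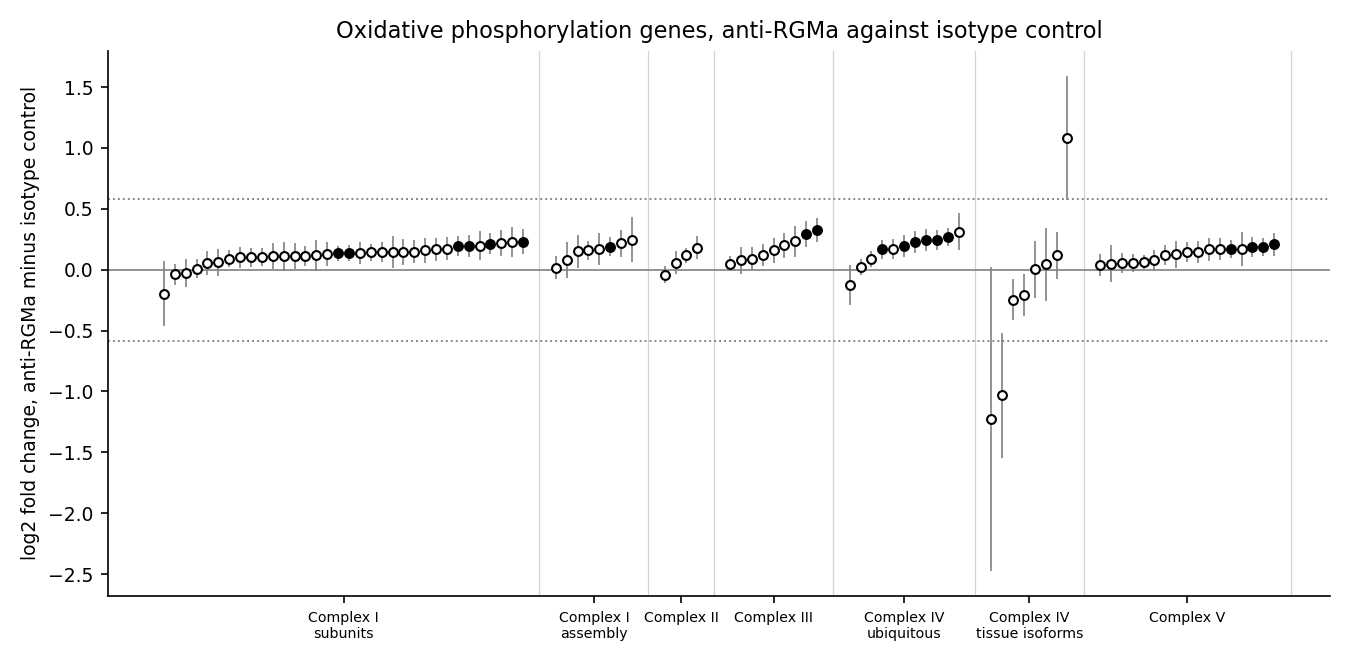
Log2 fold change of anti-RGMa against isotype control (vertical axis) for each of the 91 genes, sorted within each complex, with bars of 1 SE, filled points for an unadjusted p under 0.05 and dotted lines at a fold change of 1.5. The filled points all lie above 0 and inside the dotted lines, and the largest values, open, belong to dim tissue isoforms.

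Averaged over each complex, the arrays showed the spread within the groups. The mean log2 difference from the naïve mean over the 74 subunits was -0.18, -0.14, -0.29, -0.19, -0.31 and -0.52 in anti-RGMa replicates 1 to 6 and -0.49, -0.28, -0.35, -0.47 and -0.44 in isotype control replicates 1 to 5, and ran from -0.08 to 0.07 in naïve mice. The EAE arrays were all below the naïve arrays, and the antibody groups overlapped. Anti-RGMa replicate 6 was the lowest of the 17 arrays and the lowest of its group in 60 of 74 subunits. The means by complex were -0.30 ± 0.14 in anti-RGMa and -0.42 ± 0.11 in isotype control for complex I, -0.34 ± 0.08 in anti-RGMa and -0.42 ± 0.08 in isotype control for complex II, and -0.31 ± 0.19 in anti-RGMa and -0.48 ± 0.09 in isotype control for complex III (SD, n = 6 anti-RGMa and 5 isotype control). For complex IV they were -0.19 ± 0.11 in anti-RGMa and -0.35 ± 0.09 in isotype control, and for complex V -0.23 ± 0.14 in anti-RGMa and -0.35 ± 0.07 in isotype control. Without anti-RGMa replicate 6, 52 of the 91 genes were higher at an unadjusted p under 0.05 and 14 at an adjusted p under 0.05. Without anti-RGMa replicate 2 or isotype control replicate 4, 7 were higher at the unadjusted threshold.

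**Figure D5:**
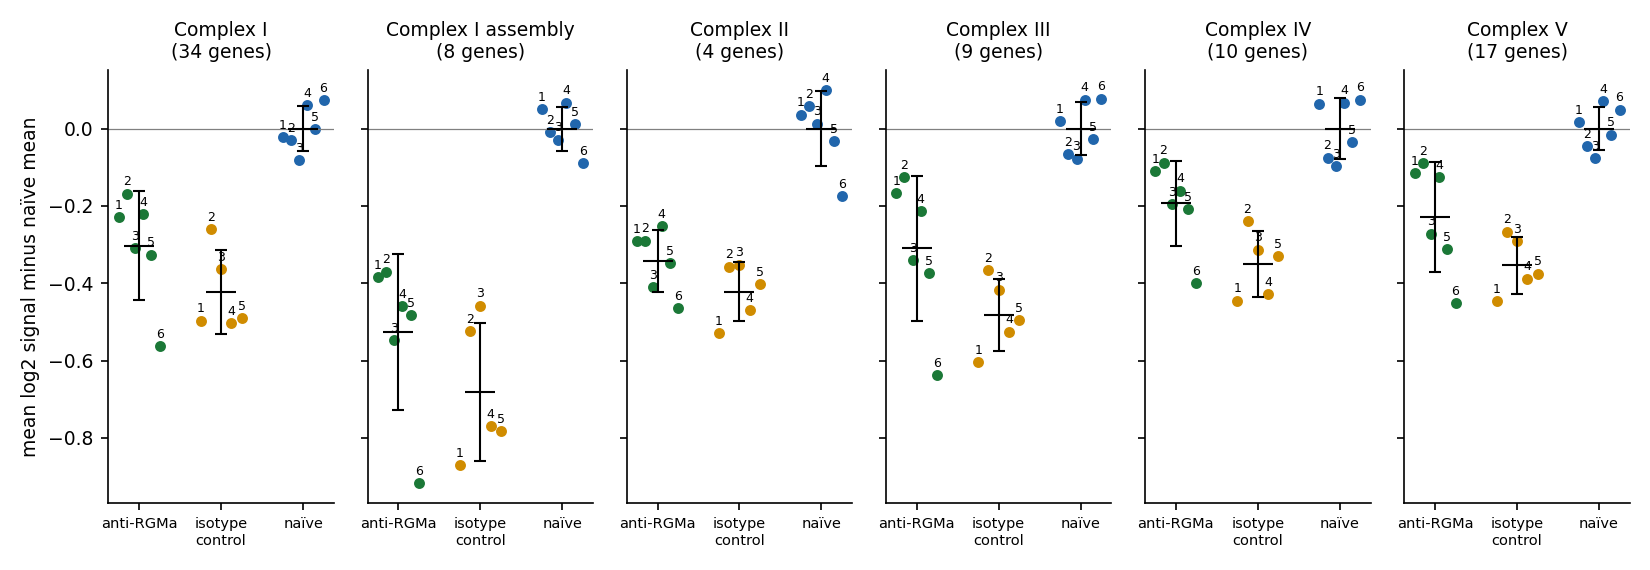
Mean log2 signal per array minus the naïve mean (vertical axis), over the ubiquitous subunits of each complex and the complex I assembly factors, with replicate numbers above the points and black bars for the mean and SD of each group. Both EAE groups lie below naïve in all 6 panels, and anti-RGMa replicate 6 is the lowest anti-RGMa array in each.

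Markers of other cells moved with these values. The mean log2 signal of 16 neuron markers was 12.00, 12.07, 12.00, 11.81, 11.92 and 11.13 in anti-RGMa replicates 1 to 6, 10.95, 11.68, 11.75, 11.51 and 11.07 in isotype control replicates 1 to 5, and between 12.42 and 12.53 in naïve mice. Of the 16 markers 15 were lower in isotype control than in naïve (median -1.04), and 11 in anti-RGMa (median -0.58). Anti-RGMa replicate 6 and isotype control replicates 1 and 5 had the lowest neuron means. The mean of 11 macrophage and monocyte markers ran from 10.27 to 11.47 in the anti-RGMa group, highest in replicate 6, from 10.64 to 11.65 in isotype control, highest in replicate 1, and from 6.35 to 7.22 in naïve mice. All 11 markers rose in both EAE groups. In a fit of the antibody groups with the neuron mean as a covariate, chosen after the data were seen, 2 of the 91 genes were higher in anti-RGMa at an unadjusted p under 0.05 and the median log2 fold change was 0.02. With the macrophage mean 3 were higher and the median was 0.04. The fit of these 2 groups without a covariate had a median of 0.14. It too called fewer genes than the fit over 3 groups, so the counts fell in part with the smaller fit (counts in the section on processing). The covariates themselves differed between the antibodies. Of the 16 neuron markers 9 were higher in anti-RGMa at an unadjusted p under 0.05 (limma) and 0 lower (median 0.46). Of the 11 macrophage and monocyte markers 0 were higher and 3 lower (median -0.30). Over all genes 9.01% were higher and 6.77% lower. These fits therefore cannot tell cell makeup and antibody apart. Against naïve the neuron and macrophage means do not overlap between groups, so cell makeup and group cannot be told apart there either.

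Other mitochondrial genes were set beside the members. Of 15 citrate cycle genes 13 fell in isotype control against naïve and 1 rose (median -0.66), among them Suclg1, of succinyl-CoA synthetase, at -0.79 (SE 0.09) and Idh3b, of isocitrate dehydrogenase, at -0.74 (SE 0.10). Of 12 genes of electron carriers, exchange and uncoupling 9 fell and 0 rose (median -0.37), with Slc25a3, the phosphate carrier, at -0.50 and Slc25a5, an ADP/ATP carrier, at -0.44. Of 16 assembly factors of complexes III and IV 9 fell and 2 rose (median -0.26), with Surf1 and Cox11, both needed to build complex IV, at -0.69 and -0.67. Of 11 import and chaperone genes 7 fell and 1 rose (median -0.32), with Tomm40, the outer membrane import pore, at -0.74 and Immt, which shapes the cristae, at -0.56. Of 11 genes of biogenesis and the mitochondrial genome 4 fell and 3 rose (median -0.08). Ppargc1a, a coactivator of mitochondrial genes, had -0.85 (SE 0.17, adjusted p = 0.000555) and Esrra, a nuclear receptor that works with it, had -0.54.

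Glycolysis, the other source of ATP, did not move in 1 direction. Of 20 glycolysis genes 8 rose and 10 fell in isotype control against naïve (median -0.20), where 24.6% of all genes rose and 27.2% fell. The hexokinases Hk3 and Hk2 were at 4.60 (SE 0.29) and 3.13 (SE 0.23). Of 7 antioxidant genes 3 rose and 3 fell, with Gpx1, a glutathione peroxidase, at 1.61 and Sod1, the cytosolic superoxide dismutase, at -0.46. Of the genes on these lists, the 15 of the citrate cycle had 0 changed between the antibodies at an adjusted p under 0.05 and 1 higher at an unadjusted p under 0.05 (median 0.13 in anti-RGMa against isotype control). Of the 12 carrier genes 5 were higher at the unadjusted threshold (median 0.14), and of the 20 glycolysis genes 6 (median 0.12). At that threshold 9.01% of all genes were higher, and 427 of 1811 in the brightest 10% of genes.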

How the data were processed

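Total RNA from 17 mouse spinal cords was hybridised to Affymetrix Mouse Genome 430 2.0 arrays, 1 mouse per array. The deposited values are linear signal intensity per probe set, which the authors made with MAS5 (the submitters' notes also name affy; with no version given in the sources used here) and scaled globally; the 2% trimmed mean was 500 in each array. MAS5 scaling fixes that mean, so a change shared by most genes would not show. Of 45101 probe sets, 34958 had 1 gene in the platform annotation, 932 several and 9211 none. Only the first kind was used, and 10 matching probe sets with several genes were left out. Detection calls were not used here. The strain was taken from the strain label; another label field counts its number up from sample to sample.

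The log2 of the deposited intensity, with no offset or filter, was fitted for 18194 genes over the 3 groups with limma 3.58.1 in R 4.3.3 (lmFit, eBayes), and p-values were adjusted by Benjamini-Hochberg over all genes. Fits were tested on simulated data. Figures used matplotlib 3.10.9 in Python 3.11.15. Nothing in the sources says whether same-numbered mice were paired, and the fits were unpaired. The number of mice limits the precision. The p-values set each group difference against the spread between mice within groups, which limma moderates over all genes.

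The members, lists, roles and tests were chosen with earlier results of these data known. Named genes were, per complex, the 2 subunits with the smallest p in isotype control against naïve, the 6 members with the smallest p between the antibodies, the tissue isoforms with their ubiquitous partners, and members that rose; Ndufs1, Ndufaf5, Ndufaf8 and other single values were picked after their values were seen. Of other lists of metabolic and mitochondrial genes, the 2 genes with the smallest p were named. Cell type markers were given as means per array. Of 5 T cell markers 4 rose in isotype control against naïve, of 9 oligodendrocyte markers 1 rose and 4 fell, of 9 astrocyte markers 4 rose and 4 fell, of 5 cardiac muscle markers 1 rose, of 4 brown fat markers 2 fell, of 4 dorsal root ganglion markers 1 fell, and of 16 skeletal muscle markers 4 rose and 1 (Pvalb, also neuronal) fell. Alternatives covered quantile normalization, an added offset, removal of dim genes, averaged probe sets, 2-group fits, variance models, array weights, covariates, a replicate block and each array left out.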

Additional observations from a re-analysis of the deposited data

Results flagged for a closer look

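Within groups, 6 of 99 sets of values had an array far from the others by Dixon's test, where chance gives about 1 in 20. Sdha had a log2 signal of 12.25 in anti-RGMa replicate 6, against 12.61 to 12.75 in the other anti-RGMa arrays. Ndufa4 had 12.53 in the same array, against 13.24 to 13.49. The mean log2 difference from naïve of the complex I assembly factors was -0.92 there, against -0.55 to -0.37. Cox6a2 had 11.44 in isotype control replicate 4, against 7.70 to 8.58 in the other isotype control arrays. Cox7b2 had 1.51 in isotype control replicate 1, against 4.31 to 5.30. Cox4i2 had 5.12 in naïve replicate 3, against 6.20 to 6.73 in the other naïve arrays.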

How the results depend on the processing

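The 63 genes lower in isotype control than in naïve were between 61 and 68 without each array in turn, and 52 with isotype control replicates 3, 4 and 5 left out together. The 51 lower in anti-RGMa than in naïve were between 41 and 54. The 3 higher in isotype control were 2 to 3 without each array and 1 among genes brighter than the median gene. The 1 higher in anti-RGMa than in naïve was 2 with quantile normalization, genes brighter than the median, the fit of 2 groups, array weights or without isotype control replicates 3 to 5, 0 with an offset of 32, the mean of the probe sets or without both isotype control replicate 1 and anti-RGMa replicate 6, 3 with a trended robust variance, and 0 to 3 without each array. Between the antibodies, the 0 higher at the study's threshold was 1 with quantile normalization, the trended robust variance, the muscle covariate or without isotype control replicates 3 to 5, and 0 to 1 without each array. The 0 lower, with or without the fold limit, was 1 with the offset, the trended robust variance or without isotype control replicate 1 and anti-RGMa replicate 6, and 0 to 1 without each array. The 0 higher at an adjusted p under 0.05 was 2 without those 2 arrays and 0 to 14 without each array. The 19 higher at an unadjusted p under 0.05 were 9 with quantile normalization, 7 in the fit of 2 groups, 30 with array weights, 8 with the muscle covariate, 5 without isotype control replicates 3 to 5, 38 without isotype control replicate 1 and anti-RGMa replicate 6, 3 with the macrophage covariate and 2 with the neuron covariate. Without each array they were 7 to 52: 7 without anti-RGMa replicate 2 or isotype control replicate 4, 8 without anti-RGMa replicate 1, 9 without 4, 10 without isotype control replicate 1, 11 without anti-RGMa replicate 3, 11 without isotype control replicate 5, and 52 without anti-RGMa replicate 6. The cause of these shifts was not tested. The settings with replicates 3 to 5 or 2 arrays left out and the macrophage and neuron covariates were chosen after seeing the data.

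Deviations from the group means correlated from -0.06 to 0.07 over 16 pairs of same-numbered samples of different groups. Over 80 pairs with different numbers they correlated from -0.13 to 0.15. Such correlations over all genes cannot show whether same-numbered mice were paired. With the replicate block, 63 genes were lower and 3 higher in isotype control than in naïve, 43 lower and 2 higher in anti-RGMa than in naïve, and between the antibodies 21 were higher and 1 lower at an unadjusted p under 0.05. That 1 gene was also over the fold limit, at which 0 were higher.

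In isotype control against naïve, Cox4i2, at 0.01, was -0.12 with quantile normalization, -0.012 with the offset, and -0.062 without isotype control replicate 1 and anti-RGMa replicate 6. Without each array it ran from -0.213 (naïve replicate 3) to 0.109, and it was -0.062 without isotype control replicate 1 and -0.015 without replicate 5. Cox8b was 0.058 with the offset. Over the named genes and settings, 854 values kept their direction and side of the threshold, 18 passed it, 23 lost it and 7 changed sign. Some settings could not move the fold change, such as leaving out an anti-RGMa array in isotype control against naïve. The 854 therefore overstate how far the values were tested. Of the 91 genes 51 had several probe sets, and in 4 of them (Ndufa7, Ndufb8, Ndufs4 and Sdhd) probe sets passed in both directions. The 8 members below the median gene by signal carry the least information.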
